A study of Mus musculus with 12 samples.

Results

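The interferon response genes are genes that cells switch on when they detect interferon or foreign nucleic acid. A list of 39 such genes, made of interferon-stimulated genes, sensors of foreign RNA, and Stat and Irf transcription factors, was read in mouse embryonic fibroblasts (MEFs). Of these, 37 had a probe set named for them alone, among 18193 genes so named on the array. The probe set of Isg15 is annotated to Isg15 and Gm9706 together, and no probe set is named for Ifi44 in the annotation used, so neither has a value. Untreated MEFs of 4 genotypes were collected in exponential growth, and the RNA of 3 samples of each was hybridised to Affymetrix MOE430 2.0 arrays, 12 in all. The genotypes were wild type (WT), a deletion of Rb1 (Rb1KO), deletions of Rb1, p107 and p130 (TKO), and the same deletions with RasG12D (TKO-Ras). The labels do not say which Ras gene is mutated or how it was introduced, and they term the samples biological replicates without naming embryos, cultures or ages. The methods state that the TKO MEFs came from another laboratory, so cell origin and genotype cannot be told apart. Values are on the log2 scale after RMA, and where a gene had several probe sets, the one brightest on average was used.

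Interferons are secreted proteins that bind paired receptors on the cell surface. Type I interferons signal through Ifnar1 and Ifnar2 to the JAK kinases, which activate a complex that holds Stat2 and Irf9, and type II interferon signals through Ifngr1 and Ifngr2. The complex binds the interferon-stimulated response element (ISRE) near the starts of the genes it induces, and the gamma-activated sequence (GAS) is the element of the type II response. The products detect viral RNA, block its translation or copying, tag proteins with the ubiquitin-like Isg15, or attack the membranes around microbes. Fibroblasts respond to both types of interferon and are a classical source of the type I protein Ifnb1.

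The promoters of the listed genes were examined for the letters of both elements. RefSeq windows on GRCm38.p6, from 250 bases before to 50 bases after a gene's start, were found for 29 of the 39 genes. The ISRE core, spelled GAAANNGAAA and searched on both strands, was present in 14 of the 29 genes (48.3%) and in 3.99% of all 27025 genes with a window. The GAS, spelled TTCNNNGAA, was present in 8 of the 29 (27.6%) and in 9.55% of all genes, and in Bst2 and Ifitm3 these elements overlap. The windows with the core were those of Ddx58, Ifih1, Eif2ak2, Stat2, Isg15, Ifit1, Ifit3, Rsad2, Bst2, Ifitm3, Gbp2, Gbp3, Igtp and Irgm1. A match is only a match of letters, and a window without one says nothing about the factor. The 160 bases before the start are shown for 5 genes whose values are described most closely here, with ISRE cores in capitals and each read 5′ to 3′ on the gene's own strand. Ifit1 (chr19:34640729-34640888, plus strand), Ifit3 (chr19:34583369-34583528, plus strand) and Gbp2 (chr3:142620503-142620662, plus strand) carry cores upstream of the start. In Irgm1 (chr11:48871421-48871580, minus strand) 2 cores overlap, and Ifit2 (chr19:34550534-34550693, plus strand), which lies next to Ifit3, has none in either of its 2 windows.
Ifit1: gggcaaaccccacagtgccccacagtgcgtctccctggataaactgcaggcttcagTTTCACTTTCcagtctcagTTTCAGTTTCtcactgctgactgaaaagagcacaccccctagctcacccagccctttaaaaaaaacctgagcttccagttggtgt
Ifit3: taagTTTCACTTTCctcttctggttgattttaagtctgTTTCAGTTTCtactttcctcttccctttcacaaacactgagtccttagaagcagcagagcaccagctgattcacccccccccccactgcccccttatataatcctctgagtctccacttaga
Ifit2: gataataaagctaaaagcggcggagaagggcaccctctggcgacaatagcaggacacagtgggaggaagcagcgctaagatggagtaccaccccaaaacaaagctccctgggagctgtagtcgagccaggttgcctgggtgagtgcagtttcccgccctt
Gbp2: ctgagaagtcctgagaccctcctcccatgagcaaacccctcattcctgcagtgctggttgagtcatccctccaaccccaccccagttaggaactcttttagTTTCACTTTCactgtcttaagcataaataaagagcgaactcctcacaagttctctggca
Irgm1: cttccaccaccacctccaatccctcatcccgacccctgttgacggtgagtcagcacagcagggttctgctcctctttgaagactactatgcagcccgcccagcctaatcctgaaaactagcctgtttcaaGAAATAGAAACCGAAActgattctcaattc

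One array stood apart before any comparison was made. WT replicate 3 correlated less with its partners (mean r = 0.974) than any other array did with its own (0.982 to 0.994), and 34 of the 37 genes were highest on it within the WT group (91.9%, against 38.7% of all probe sets). The exceptions were Irgm1, Samhd1 and Sp100, each highest on WT 2. The mean of the 37 genes was 8.37 on WT 3, 6.71 on WT 1 and 6.72 on WT 2. On WT 3, 26 of the 37 genes (70.3%) lay over 1 log2 unit above the mean of WT 1 and WT 2, against 3.17% of all probe sets and 4.49% of those above background. The median of this difference was 1.36 for the 37 genes and 0.003 for all probe sets. Of the 13 measured genes with an ISRE core in their window, 12 passed 1 on WT 3, as did 7 of the 14 with a window and no core and 7 of the 10 with no window.

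The genes that differed most between the WT arrays came from several roles. Ifit1, which binds viral RNA that lacks the host cap methylation, lay at 9.97 on WT 3 and at 5.28 and 4.47 on WT 1 and WT 2. Rtp4, an interferon-induced protein first known as a receptor chaperone, was 14.6-fold higher on WT 3 and Usp18, the protease that removes Isg15 and dampens signalling at the type I receptor, was 13.2-fold higher. Oasl2, a relative of the oligoadenylate synthetases, was at background on WT 1 and WT 2, so its 7.81 on WT 3 gives only a bound of at least 6.38-fold. Background was set at 5.13, the 95th percentile of the values of 44 olfactory receptor probe sets, taken as genes that fibroblasts do not use. Ifit1 lay above it on WT 1 and below it on WT 2, so its difference on WT 3 is at least 27.2-fold, with WT 2 held at background. Irgm1 moved the other way and was 2.27-fold lower on WT 3, at 9.74 against 10.86 and 10.98. With genes at background on WT 1 and WT 2 held at their bounds and those at background on every WT array left out, the median over 34 genes was 1.48 and 25 passed 1.

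Marker lists of other cell types were read on WT 3 as well. Of 15 macrophage and leukocyte markers, 7 were at background on every array, among them Ptprc, Adgre1, Itgam and Itgb2. The mean of all 15 was 4.68 on WT 3, within the 4.68 to 4.78 of the WT arrays, and the most abundant of them was Cd14. The endothelial mean of 4.78 (most abundant Eng) and the epithelial mean of 4.92 (most abundant Krt19) on WT 3 were the lowest of the WT group, while the fibroblast mean of 12.1 (most abundant Vim) was the highest of its 11.2 to 12.1. The low epithelial mean came with Krt19, at 5.11 on WT 3 and at 7.94 and 9.09 on WT 1 and WT 2. Single markers were higher on WT 3, among them Lyz2 of macrophages, at 6.35 against 5.40 and 5.35, and Epcam of epithelia, at 7.64 against 6.65 and 6.64, and of the 15 macrophage and leukocyte, 10 endothelial and 8 epithelial markers 0 passed 1 log2 unit above the mean of WT 1 and WT 2. Of the 11 fibroblast markers 4 passed it, most of all Pdgfra, at 11.54 on WT 3 against a mean of 7.45. Fibroblast markers were above background on all 12 arrays for 9 of the 11, and Thy1 and Lum on 6 arrays each. The part of these markers in the results was not tested. Ifnb1, the type I interferon of fibroblasts, was at 5.30 on WT 3 and at 4.87 and 4.70 on WT 1 and WT 2, all close to background. The share of probe sets above background was 54.2% on WT 3 and 52.9% to 54.2% over the 12 arrays. Counts and medians against WT are therefore given with and without this array, as are the genes whose call or fold turns on it.

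**Figure D1:**
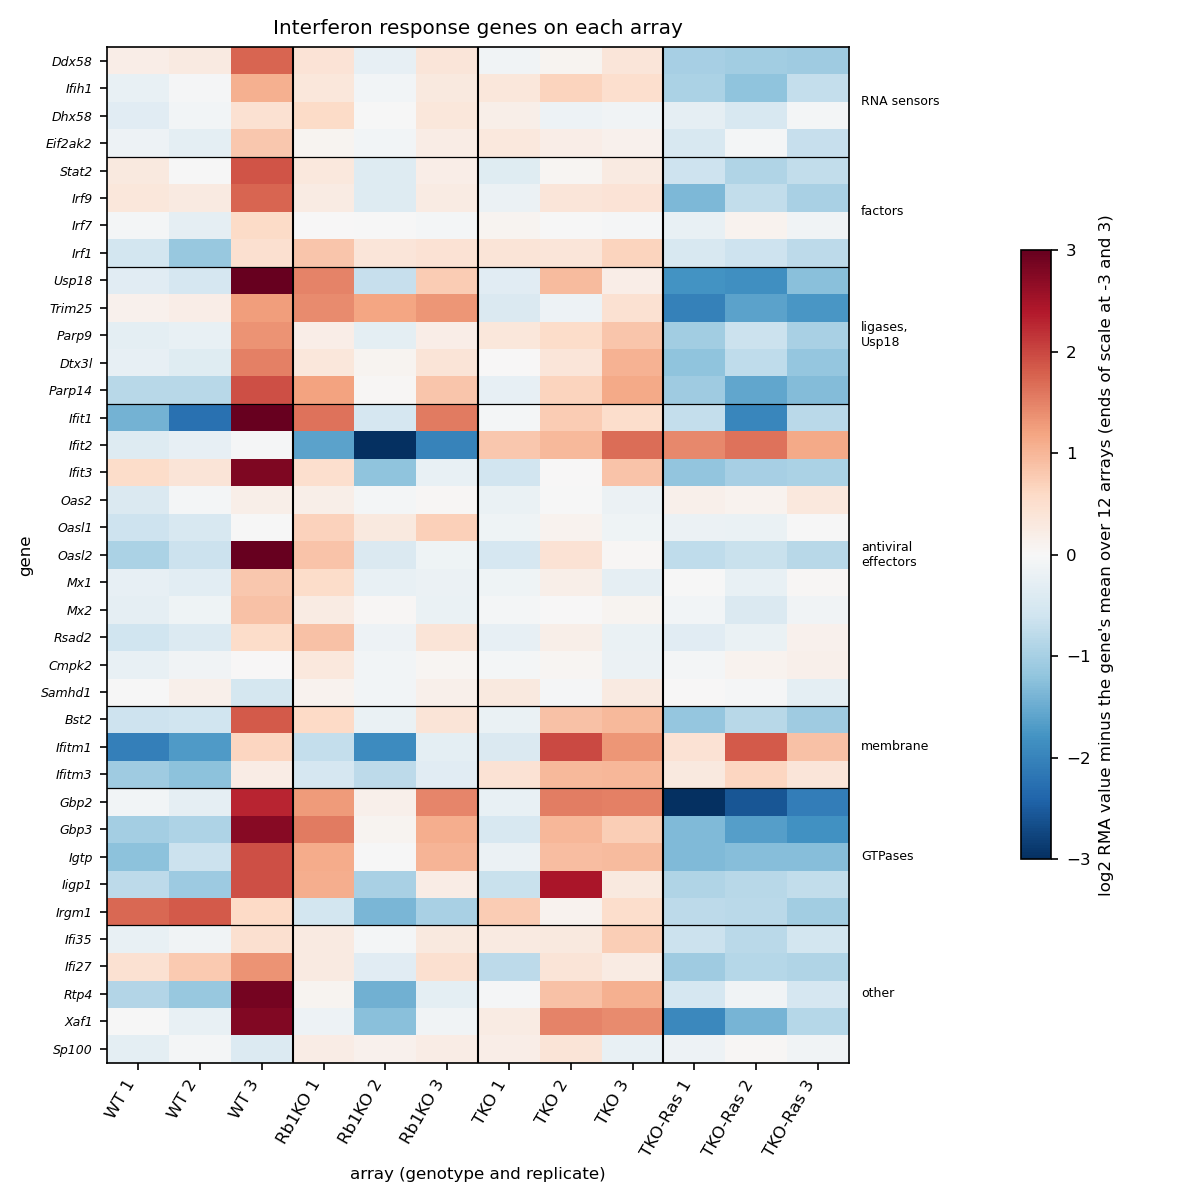
Each row is 1 of the 37 interferon response genes and each column 1 of the 12 arrays, and the colour gives the log2 RMA value minus the gene's mean over the 12 arrays. WT 3 is the reddest column, with 34 of the 37 genes at the top of their group, and the 3 TKO-Ras columns are blue or pale for most genes and red for Ifit2, Ifitm1 and Ifitm3.

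The other knockout groups also held 1 array below its partners. On Rb1KO 2, 35 of the 37 genes were the lowest of their group (94.6%, against 36.5% of all probe sets), all but Irf7 and Mx2. On TKO 1, 28 of the 37 were the lowest (75.7%, against 30.6%). The means of the 37 genes were 7.49, 6.66 and 7.29 on Rb1KO 1 to 3, 7.00, 7.59 and 7.56 on TKO 1 to 3, and 6.34, 6.43 and 6.44 on TKO-Ras 1 to 3. The median SD of the 37 genes was 0.82 in WT, 0.39 in Rb1KO, 0.33 in TKO and 0.18 in TKO-Ras MEFs, against 0.20, 0.14, 0.15 and 0.16 for probe sets above background. Interferon response genes thus varied more than the array as a whole between replicates of WT, Rb1KO and TKO MEFs, and close to it in TKO-Ras MEFs. The differences are relative levels per array, and in bulk RNA fewer responding cells and less RNA per cell cannot be told apart.

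The deleted genes were checked against the labels. Rbl1, which encodes p107, lay between 8.18 and 9.00 on the WT and Rb1KO arrays and at or below 5.12, at background, on the TKO and TKO-Ras arrays. Rb1 lay between 8.31 and 8.70 in WT MEFs, 7.51 and 7.74 in Rb1KO, 6.97 and 7.43 in TKO, and 7.45 and 7.66 in TKO-Ras MEFs. Rbl2, which encodes p130, lay between 7.54 and 7.90 in WT MEFs, but at 4.47, 3.80 and 4.27 on the arrays labelled Rb1KO, below its 5.27 to 5.71 in TKO MEFs. The label names a deletion of Rb1 alone, so Rb1KO below means the arrays labelled Rb1KO. Where a probe set lies relative to a deleted part was not examined.

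**Figure D2:**
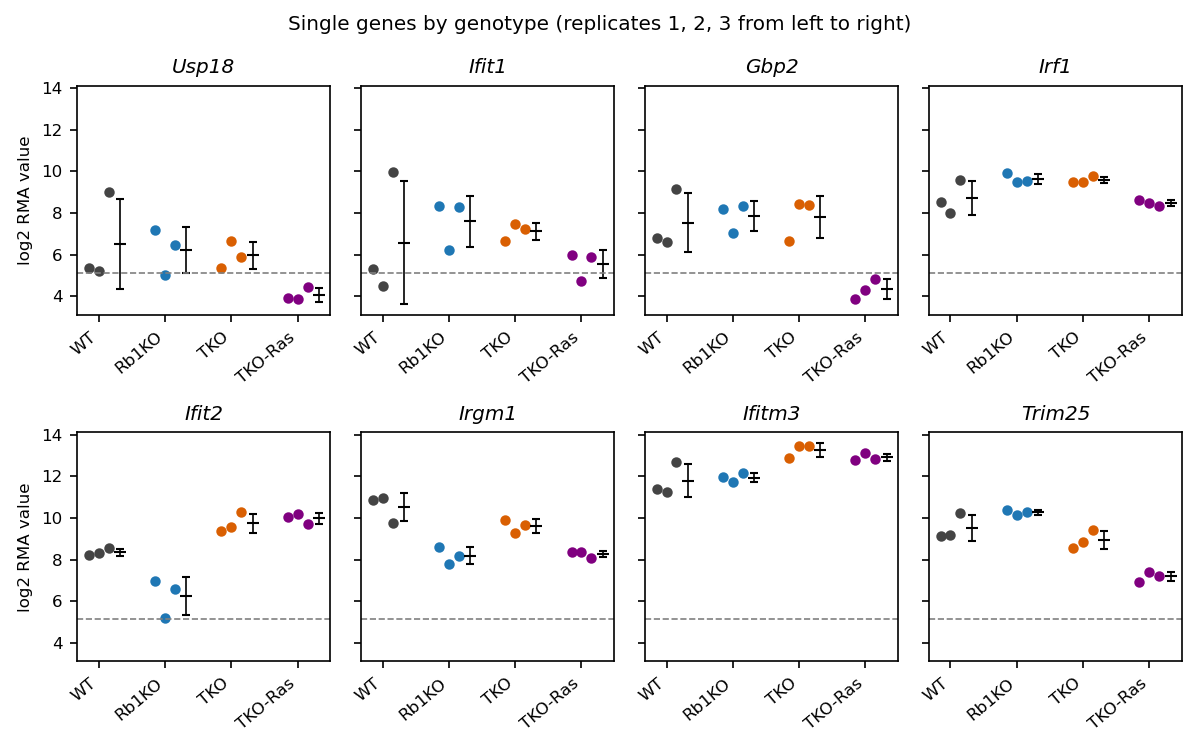
Log2 RMA values of 8 interferon response genes, with 1 point for each array, a bar for the mean ± SD (n = 3) beside them, and the background level of 5.13 as a dashed line. Usp18, Ifit1 and Gbp2 are high on WT 3 alone of the WT arrays, and Gbp2 is below background on all TKO-Ras arrays. Ifit2 is lowest on the Rb1KO arrays and overlaps between TKO and TKO-Ras MEFs. Irgm1 overlaps between Rb1KO and TKO-Ras MEFs and, through WT 3, between WT and TKO MEFs.

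To determine how loss of all Rb family members altered the response genes, TKO were compared with WT MEFs. With all 12 arrays in 1 limma fit, 2 of the 37 genes were higher in TKO MEFs and 0 were lower at an adjusted p under 0.05, where 10.5% and 9.01% of all probe sets were called higher and lower. At an unadjusted limma p under 0.05, 5 were higher and 2 lower. No share of all probe sets is given at that threshold, so these counts have no comparison. Both called genes encode proteins that act directly on viruses. The 37 genes hold 11 antiviral effectors and 3 membrane restriction factors, so the list itself is rich in such roles. Ifit2, which binds viral RNA and blocks translation, lay at 8.20, 8.34 and 8.54 in WT MEFs and at 9.39, 9.56 and 10.26 in TKO MEFs (probe set 1418293_at). The groups did not overlap, and the log2 fold change was 1.38 (SE 0.38, adjusted p = 0.025 from limma). Ifitm3, a membrane protein that hinders entry of viruses, lay at 11.41, 11.26 and 12.69 in WT MEFs and at 12.90, 13.46 and 13.48 in TKO MEFs (1423754_at). All TKO arrays were above WT 3, the highest WT array, and the log2 fold change was 1.50 (SE 0.32, adjusted p = 0.0065). The median log2 fold change of the 37 genes was 0.17, beside 0.03 for all probe sets. The call of Ifit2 was lost without WT 1, WT 2, TKO 2 or TKO 3, and the count of higher genes was 1 without WT 1, WT 2 or TKO 2.

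Without WT 3 the same comparison called many more of these genes. Of the 37, 15 were higher and 1 was lower in TKO MEFs, beside 10.9% and 10.0% of all probe sets. The median log2 fold change was 0.60, beside 0.04 over all probe sets, and 0.63 with genes at background held at their bounds. This fit has 2 WT arrays, and its spread was pooled over the groups. WT 3 was set apart partly by high values of these same genes, so leaving it out lowers most of their WT means. More genes called higher therefore follow in part from that choice, which all probe sets do not share. This holds for every comparison with WT. Comparisons without WT arrays are affected through the shared spread, which WT 3 widens for most of these genes. The genes that rose were Ifih1 among the RNA sensors, Irf1 among the factors, the chromosomal neighbours Parp9, Dtx3l and Parp14, and the effectors Ifit1, Ifit2 and Oasl1. All 3 membrane proteins (Bst2, Ifitm1 and Ifitm3), the GTPases Gbp3 and Igtp, and Ifi35 and Rtp4 rose as well. The largest was Ifitm1, which lay at 5.44 and 5.78 on WT 1 and WT 2 and at 7.04, 9.46 and 8.81 in TKO MEFs, a log2 fold change of 2.83 (adjusted p = 0.009). On WT 3, at 8.14, it lay inside the TKO range, and over all arrays its log2 fold change was 1.99 with an adjusted p of 0.098. Irf1, a factor induced by both types of interferon, lay at 8.55 and 7.98 on WT 1 and WT 2, at 9.60 on WT 3, and at 9.50, 9.48 and 9.78 in TKO MEFs. Its log2 fold change was 1.32 without WT 3 (adjusted p = 4.8e-04) and 0.88 with it (adjusted p = 0.074). Irgm1 fell by 1.30 on the log2 scale without WT 3 (adjusted p = 0.0017).

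**Figure D3:**
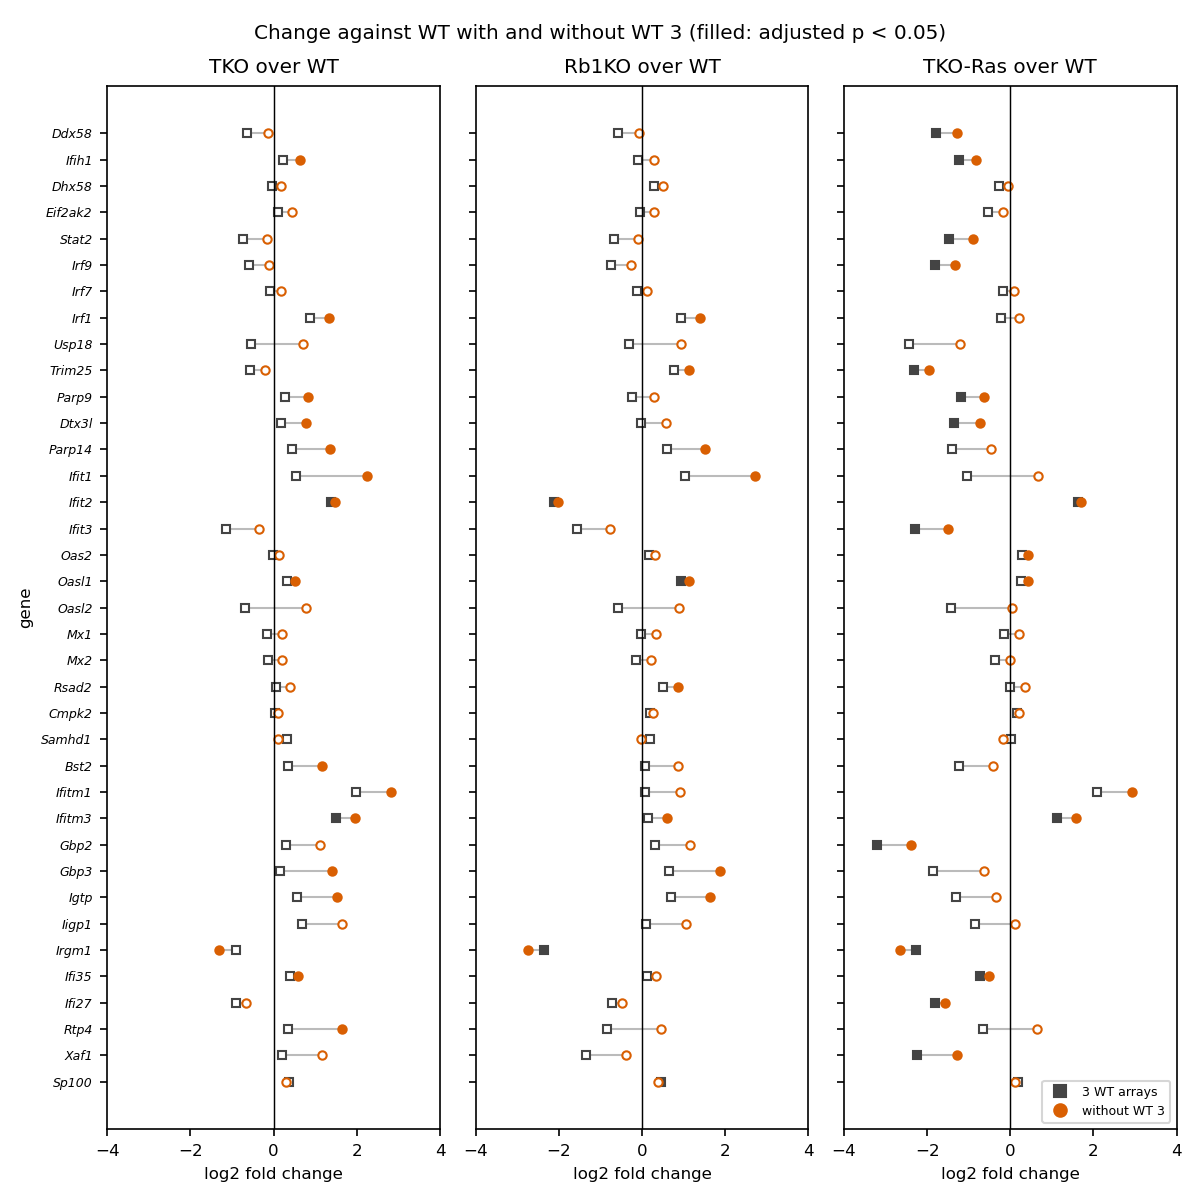
Log2 fold change of the 37 genes in TKO, Rb1KO and TKO-Ras against WT MEFs, with 3 WT arrays (grey squares) and without WT 3 (orange circles), filled where the adjusted p was under 0.05. Most lines run to the right without WT 3, and filled points for TKO over WT go from 2 to 16, while Ifit2 hardly moves.

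The Rb1KO arrays were compared with WT in the same fit. Of the 37 genes, 2 were higher and 2 lower, beside 12.5% and 10.1% of all probe sets, and the median log2 fold change was 0.06, beside 0.07 over all probe sets. The lower genes were Ifit2 and Irgm1. Ifit2 lay at 6.98, 5.21 and 6.57 on the Rb1KO arrays, all below the WT arrays, a log2 fold change of -2.10 (SE 0.38, adjusted p = 0.002). Irgm1, a GTPase that directs other members of its family and autophagy against microbes in vacuoles, lay at 8.58, 7.77 and 8.17 on the Rb1KO arrays and between 9.74 and 10.98 on the WT arrays (1418825_at). This was a log2 fold change of -2.35 (SE 0.31, adjusted p = 2.5e-04), and it was -2.74 without WT 3. Of the higher genes, Oasl1, an inhibitor of Irf7 translation, rose by 0.94 (SE 0.17, adjusted p = 0.0018), from 4.87, 5.01 and 5.48 to 6.20, 5.78 and 6.20. Sp100, a nuclear body protein, was at background in both groups, so its call (adjusted p = 0.049) carries no fold, and it was lost without WT 1, WT 3, any Rb1KO array, TKO 1 or any TKO-Ras array. The count of higher genes was 1 without WT 1, any Rb1KO array, TKO 1 or any TKO-Ras array.

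Without WT 3, 9 genes were higher and 2 lower on the Rb1KO arrays, beside 12.6% and 11.3% of all probe sets, with a median log2 fold change of 0.38. Those higher were Irf1, Trim25, Parp14, Ifit1, Oasl1, Rsad2, Ifitm3, Gbp3 and Igtp, and the lower pair was again Ifit2 and Irgm1. Ifit1 had the largest rise of the 9, by 2.73 (adjusted p = 0.0057), from 5.28 and 4.47 to 8.34, 6.20 and 8.27, and it was at least 5.27-fold higher with WT 2 held at background. All of its Rb1KO values were below the 9.97 of WT 3, and with that array the log2 fold change was 1.03 (adjusted p = 0.58). Comparisons of TKO and Rb1KO with WT share the WT arrays and are not independent. As for TKO MEFs, the 9 higher genes follow in part from setting WT 3 apart on these same genes.

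The knockouts were then compared with each other, without WT arrays in the contrast. Of the 37 genes, 3 were higher in TKO than in Rb1KO MEFs and 2 lower, beside 4.19% and 2.99% of all probe sets, and the median log2 fold change was -0.03, beside -0.04 for all probe sets. Ifit2 rose by 3.48 (SE 0.38, adjusted p = 2e-04), an 11.2-fold difference between groups that did not overlap. Irgm1 rose by 1.44 (SE 0.31, adjusted p = 0.016) and Ifitm3 by 1.34 (SE 0.32, adjusted p = 0.026). Thus Ifit2 was lowest in Rb1KO, intermediate in WT and highest in TKO MEFs, each step past the threshold. The mean of Irgm1 was highest in WT MEFs, where WT 3 lay inside the TKO range. Trim25, a ubiquitin ligase that activates the sensor Ddx58, lay at 10.39, 10.16 and 10.29 on the Rb1KO arrays and at 8.56, 8.83 and 9.44 in TKO MEFs (1419879_s_at). It fell by 1.34 (SE 0.29, adjusted p = 0.017), and Oasl1 fell by 0.62 (adjusted p = 0.047). Leaving out Rb1KO 2, Rb1KO 3 or TKO 3 left 1 higher gene. Leaving out Rb1KO 1, Rb1KO 3, TKO 1 or TKO 2 left 0 lower genes at an adjusted p under 0.05, and leaving out WT 2, TKO 3 or any TKO-Ras array left 1. Without WT 3, 4 genes were higher and 2 lower, beside 6.11% and 4.79% of all probe sets, and the added gene was Xaf1, an inhibitor of the apoptosis inhibitor XIAP, with a log2 fold change of 1.55 (adjusted p = 0.026). The other probe set of Xaf1, above background on 6 arrays, ran the opposite way in that comparison, with a log2 fold change of -3.63 (adjusted p = 1.3e-04), so the direction of Xaf1 is not settled. With all 12 arrays this dimmer probe set was also lower in TKO than in Rb1KO MEFs (adjusted p = 3.7e-04). It was lower in TKO (adjusted p = 0.0092) and higher in Rb1KO (adjusted p = 0.014) than in WT MEFs. The brightest was not called in these comparisons with 12 arrays.

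Mutant Ras on top of the 3 deletions was examined by comparing TKO-Ras with TKO MEFs. Of the 37 genes, 6 were lower in TKO-Ras MEFs and 0 higher, beside 3.13% and 2.54% of all probe sets. At an unadjusted limma p under 0.05, where no share of all probe sets is given for comparison, 17 were lower and 0 higher. The median log2 fold change was -1.10, beside 0.04 over all probe sets, and -1.01 over 33 genes with genes at background held at their bounds. For 25 of the 37 genes every TKO-Ras array lay below every TKO array, which held for 11.1% of all probe sets. Among the 25 was Oasl2, at background in both groups. The genes that fell were a sensor, a ubiquitin ligase and an ADP-ribose binding protein, 2 GTPases, and Ifi35. The median of the 11 effectors on viral RNA or replication was -0.07, Mx1 and Oasl2 at background among them, while Ifit1 (log2 fold change -1.57, adjusted p = 0.51) and Ifit3 were lower without overlap and not called.

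Gbp2, a guanylate-binding protein that coats the vacuoles of microbes, lay at 6.65, 8.42 and 8.41 in TKO MEFs and at 3.86, 4.31 and 4.81 in TKO-Ras MEFs (1435906_x_at). All TKO-Ras arrays were below background, so Gbp2 was at least 6.46-fold lower (adjusted p = 0.011), and its promoter holds 1 ISRE core (above). A probe set of this kind can also read related genes such as its neighbour Gbp2b. The other probe set of Gbp2, above background on 9 arrays, was also lower in TKO-Ras than in TKO MEFs (adjusted p = 0.012). The call of 1435906_x_at was lost without TKO 2, TKO 3 or TKO-Ras 1. Trim25 lay at 6.94, 7.38 and 7.23 in TKO-Ras MEFs and fell by 1.76 (SE 0.29, adjusted p = 0.0049). A second probe set of Trim25 fell by 1.75 (adjusted p = 0.0068), while the third and dimmest, above background on all 12 arrays, differed by -0.42 on the log2 scale (adjusted p = 0.37). Ifih1, the sensor of long double-stranded RNA known as MDA5, lay at 7.29, 7.61 and 7.45 in TKO MEFs and at 5.99, 5.74 and 6.24 in TKO-Ras MEFs. This was a log2 fold change of -1.46 (SE 0.28, adjusted p = 0.012), lost without TKO 2. Ifi35, which pairs with the related protein Nmi, lay at 10.20, 10.24 and 10.67 and at 9.29, 9.14 and 9.38, and fell by 1.10 (SE 0.19, adjusted p = 0.0064). Parp9, an ADP-ribose binding protein that works with the ubiquitin ligase Dtx3l, fell by 1.46 (SE 0.36, adjusted p = 0.038), a call lost without any TKO or TKO-Ras array and without Rb1KO 1 or Rb1KO 3. Irgm1 fell by 1.35 (SE 0.31, adjusted p = 0.027), from 9.91, 9.26 and 9.68 to 8.36, 8.35 and 8.09, a call lost without TKO 1, TKO 3 or any TKO-Ras array.

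The count of lower genes depended on the spread used, since WT arrays enter this contrast only through the shared spread and leaving one out does not change a fold. Without WT 3, 18 genes were lower, the same 6 among them, beside 5.08% of all probe sets, and 0 were higher, beside 3.95%. At an unadjusted limma p under 0.05, again without a share of all probe sets, 1 was higher. WT 3 was set apart partly by these same genes, whose median SD in WT MEFs was 0.82, against 0.20 for probe sets above background. The added calls follow in part from that choice, so the 5.08% is not a like comparison. The count of lower genes was also 18 with TKO and TKO-Ras arrays alone in the fit, and 3 without TKO 2, TKO 3 or TKO-Ras 1. For these fits no share of all probe sets is given. The 12 added genes were Ddx58, Eif2ak2, Stat2, Irf9, Irf1, Usp18, Dtx3l, Parp14, Bst2, Gbp3, Igtp and Xaf1. Irf9 and Stat2, members of the type I complex, fell by 1.20 (adjusted p = 0.0045) and 0.74 (adjusted p = 0.043) in that fit, and were not called with all 12 arrays (adjusted p = 0.08 and 0.35). Bst2, which tethers budding virus to the cell, lay at 8.44, 9.52 and 9.63 in TKO MEFs and at 7.48, 7.80 and 7.57 in TKO-Ras MEFs, with adjusted p = 0.0051 without WT 3 and 0.14 with it. Xaf1 lay at 7.15, 8.40 and 8.32 in TKO MEFs and at 4.97, 5.52 and 6.04 in TKO-Ras MEFs, with adjusted p = 0.0023 and 0.068, while its other probe set differed by 0.39 on the log2 scale (adjusted p = 0.63 and 0.70). Usp18 was at background on every TKO-Ras array, at 3.89, 3.86 and 4.45, and at least 1.78-fold lower than in TKO MEFs, where it lay at 5.36, 6.64 and 5.90 (adjusted p = 0.025 and 0.27).

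**Figure D4:**
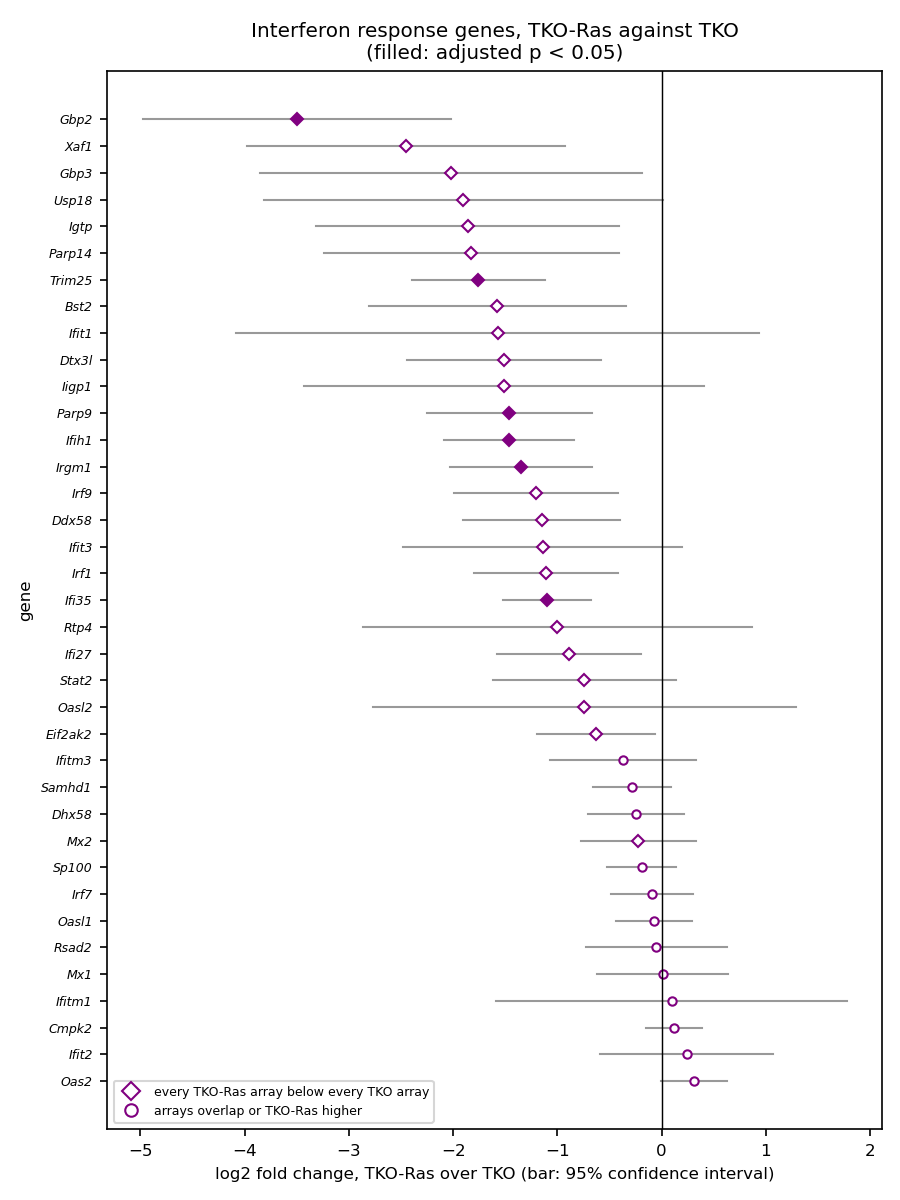
Log2 fold change of the 37 genes in TKO-Ras over TKO MEFs with 95% confidence intervals from the fit of 12 arrays, filled where the adjusted p was under 0.05, and diamonds where the arrays of the groups did not overlap and TKO-Ras was lower. Of the 37 points 32 lie left of 0, and the 6 filled ones are Gbp2, Trim25, Parp9, Ifih1, Irgm1 and Ifi35. Gbp2, Usp18, Parp14 and Iigp1 were at background in TKO-Ras MEFs, and Dhx58, Oasl2, Mx1 and Sp100 in both groups. The fitted values of all these at background are not folds.

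Ifit2 and both Ifitm genes overlapped between TKO and TKO-Ras MEFs. Ifit2 lay at 10.02, 10.20 and 9.71, beside 9.39, 9.56 and 10.26 in TKO MEFs, a log2 fold change of 0.24 (95% confidence interval -0.59 to 1.07, adjusted p = 0.80). Ifitm3 lay at 12.78, 13.12 and 12.84 and Ifitm1, its neighbour on the chromosome, at 7.93, 9.32 and 8.36, both overlapping the TKO arrays. The 95% confidence interval of Ifitm1 ran from -1.58 to 1.78, so a change of several fold in either direction is not excluded by its spread. Ifit3, adjacent to Ifit2, lay at 6.26, 6.46 and 6.51 in TKO-Ras MEFs and at 6.89, 7.47 and 8.31 in TKO MEFs, below without overlap but not called (log2 fold change -1.14, adjusted p = 0.35). Ifit3b, a near copy, lies close by, and reads of the probe set for Ifit3 may come from both. Oas2, which makes the activator of Rnase L, was the 1 gene with all TKO-Ras arrays above the TKO arrays, at 5.70, 5.66 and 5.86 against 5.37, 5.54 and 5.39 (adjusted p = 0.27).

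TKO-Ras was also compared with WT MEFs. Of the 37 genes, 13 were lower and 2 higher, beside 12.4% and 15.5% of all probe sets. The median log2 fold change was -1.03, beside 0.09 over all probe sets, and -0.87 over 34 genes with genes at background at their bounds. Without WT 3 the counts were 13 lower and 5 higher, beside 12.9% and 14.7%, and the median was -0.19, so the size of the shift rests on WT 3 while all 15 calls were also made without it. Gbp2 was at least 5.26-fold lower (adjusted p = 0.0043), and at least 2.98-fold lower without WT 3. Trim25 fell by 2.33 (SE 0.29, adjusted p = 1.4e-04), from 9.11, 9.17 and 10.24, and Irgm1 by 2.26 (SE 0.31, adjusted p = 2.6e-04). The second probe set of Trim25 fell by 2.19 (adjusted p = 3e-04), and the dimmest differed by -0.08 (adjusted p = 0.82). Ddx58, the RNA sensor known as RIG-I, lay at 8.06, 8.12 and 9.60 in WT MEFs and at 6.85, 6.81 and 6.77 in TKO-Ras MEFs, a log2 fold change of -1.78 (SE 0.34, adjusted p = 0.0025). Irf9 lay at 7.67, 7.59 and 9.08 and at 5.99, 6.59 and 6.36, a log2 fold change of -1.80 (SE 0.36, adjusted p = 0.003). All 5 were lower on every TKO-Ras array than on any WT array.

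The other genes lower in TKO-Ras than in WT MEFs were Ifih1, Stat2, Parp9, Dtx3l, Ifit3, Ifi35, Ifi27 and Xaf1, with log2 fold changes from -2.28 for Ifit3 to -0.72 for Ifi35. Without WT 3 these differences were smaller, and the fold went from 4.86 to 2.84 for Ifit3, from 4.77 to 2.44 for Xaf1 and from 2.55 to 1.67 for Dtx3l. The other probe sets of Ifi35, above background on all 12 arrays, were not called (log2 fold changes -0.50 and -0.49, adjusted p = 0.065 and 0.067). Without WT 3 these gave -0.32 and -0.27 (adjusted p = 0.2 for each). Ifi27 lay at 10.02, 10.36 and 10.91 in WT MEFs and at 8.50, 8.70 and 8.67 in TKO-Ras MEFs, and fell by 1.80 (SE 0.31, adjusted p = 0.0013). The 2 higher genes were Ifit2, by 1.62 (SE 0.38, adjusted p = 0.0079), and Ifitm3, by 1.13 (SE 0.32, adjusted p = 0.021). Without WT 3, Ifitm1 (log2 fold change 2.92, adjusted p = 0.0057), Oas2 (0.43, adjusted p = 0.033) and Oasl1, which was at background on WT 1 and WT 2 and at least 1.18-fold higher, were added to the higher genes. The count of higher genes was 1 without WT 1, WT 2 or TKO-Ras 2. Calls were lost for Dtx3l without any TKO-Ras array, for Parp9 without TKO-Ras 1 or 3, and for Xaf1 without TKO-Ras 1 or 2. They were also lost for Stat2 and Ifi35 without TKO-Ras 2, and for Ifitm3 without WT 1, WT 2 or TKO-Ras 2.

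Most of the remaining genes lay low or in narrow ranges. Dhx58, the LGP2 helper of the RNA sensors, Mx1, a dynamin-like GTPase that blocks influenza virus, and Sp100 were at or below background on all 12 arrays. Cmpk2, a mitochondrial nucleotide kinase, lay between 4.93 and 5.46, and Mx2 lay between 5.26 and 6.58, highest on WT 3. Irf7, the factor that amplifies type I interferon, lay between 5.08 and 5.92, again highest on WT 3. Samhd1, which degrades nucleotides needed by viruses, lay between 8.93 and 9.75 and was lowest on WT 3. Eif2ak2, the kinase PKR that stops translation on double-stranded RNA, lay between 7.66 and 9.16 on its brightest probe set, not called with 12 arrays. Its dimmest, above background on all 12 arrays, was lower in TKO-Ras than in WT MEFs (log2 fold change -1.92, adjusted p = 2.3e-04). The same held against TKO MEFs (-1.06, adjusted p = 0.036). It was also lower in TKO (-0.86, adjusted p = 0.038) and Rb1KO (-0.85, adjusted p = 0.034) than in WT MEFs. The TKO and Rb1KO calls were lost without WT 3. The third was lower in TKO-Ras than in WT MEFs (-1.01, adjusted p = 0.0035). Rsad2, the enzyme viperin, which makes a chain-terminating nucleotide and is encoded next to Cmpk2, lay between 5.57 and 7.04. Iigp1, a GTPase of the Irgm1 family, ranged from 4.11 to 7.65 and was above background on WT 3, TKO 2, TKO 3, Rb1KO 1 and Rb1KO 3 alone. Oasl2 was above background on WT 3 alone, and lay between 3.25 and 5.04 on the other 11 arrays.

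The remaining GTPases and Parp14 were high on WT 3 and in part of the knockout arrays. Gbp3 lay at 5.75, 5.84 and 9.50 in WT MEFs, 8.33, 6.86 and 7.86 on the Rb1KO arrays, 6.30, 7.76 and 7.52 in TKO MEFs, and 5.45, 5.11 and 4.96 in TKO-Ras MEFs. Igtp lay at 6.32, 6.90 and 9.48, at 8.67, 7.53 and 8.57, at 7.39, 8.47 and 8.51, and at 6.23, 6.27 and 6.28 in the same order of groups. Parp14, an ADP-ribosyltransferase, was at 4.79, 4.80 and 7.55 in WT MEFs and between 4.07 and 4.57, at background, in TKO-Ras MEFs. For these 3 genes the Rb1KO and TKO arrays lay above WT 1 and WT 2 and below WT 3, and the TKO-Ras arrays lay below all Rb1KO and TKO arrays. Rtp4 had another order, since its TKO-Ras arrays, between 7.54 and 7.94, lay above its WT 1 and WT 2 values of 7.16 and 6.91.

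The rest of the interferon pathway was read from a further list of 94 genes, of which 85 were measured. In TKO against WT MEFs 10 of the 85 rose and 9 fell, in Rb1KO against WT 8 rose and 16 fell, in TKO against Rb1KO 9 rose and 4 fell, in TKO-Ras against TKO 4 rose and 10 fell, and in TKO-Ras against WT 12 rose and 23 fell. As shares of the 85 these were 11.8% and 10.6%, 9.41% and 18.8%, 10.6% and 4.71%, 4.71% and 11.8%, and 14.1% and 27.1%. All probe sets gave 10.5% and 9.01%, 12.5% and 10.1%, 4.19% and 2.99%, 2.54% and 3.13%, and 15.5% and 12.4% in the same order, so the shares for TKO against WT were near the background. Their median log2 fold changes lay between -0.17 and 0.04. On WT 3 their median difference from WT 1 and WT 2 was 0.31, and 27.1% of them passed 1. Without WT 3 the counts were 16 and 7, 16 and 17, 14 and 6, 6 and 19, and 16 and 21 in the same order. All probe sets then gave 10.9% and 10.0%, 12.6% and 11.3%, 6.11% and 4.79%, 3.95% and 5.08%, and 14.7% and 12.9%.

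The 7 interferon ligands gave little signal. Ifna2, Ifna4, Ifna5, Ifna11 and Ifng were at background on all arrays, and Ifnb1 and Ifna1 lay between 4.70 and 5.57 on the 12 arrays. Of 8 receptor and JAK kinase genes, 3 fell in TKO-Ras over TKO MEFs and 0 rose, beside 3.13% and 2.54% of all probe sets. Ifngr2, a chain of the type II receptor, lay at 9.98, 9.84 and 10.28 in TKO MEFs and at 9.26, 8.99 and 9.00 in TKO-Ras MEFs, a log2 fold change of -0.95 (SE 0.19, adjusted p = 0.014). Ifnar1 and Ifnar2, the chains of the type I receptor, fell by 0.52 (adjusted p = 0.016) and 0.84 (adjusted p = 0.035) in the same comparison. Ifngr1, the other type II chain, had a log2 fold change of -0.51 that was called without WT 3 only. Against WT, Ifngr2 fell in TKO (by 0.62, adjusted p = 0.042, with WT 3 and TKO 3 overlapping), Rb1KO (by 0.74, adjusted p = 0.016) and TKO-Ras MEFs (by 1.57, adjusted p = 1.1e-04).

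Some pathway genes changed by several fold, and each call against WT given below was also made without WT 3. Cxcl10, a chemokine that draws T cells, lay at 5.10, 4.22 and 6.75 in WT MEFs, 9.08, 8.02 and 8.36 on the Rb1KO arrays, and 8.19, 8.35 and 8.21 in TKO MEFs. It rose by 3.13 in Rb1KO (adjusted p = 0.0028) and by 2.89 in TKO MEFs (adjusted p = 0.0055), above WT 3 on every array. Without WT 3 it was at least 10.2-fold and 8.67-fold higher, since WT 1 and WT 2 were at background. Mlkl, the executor of necroptosis, lay at 8.42, 8.57 and 8.69 in WT MEFs, 5.98, 5.13 and 5.33 on the Rb1KO arrays, 9.51, 9.63 and 9.91 in TKO MEFs, and 10.56, 10.49 and 10.48 in TKO-Ras MEFs. Its log2 fold change was -3.08 in Rb1KO over WT (adjusted p = 1.8e-06), 4.20 in TKO over Rb1KO (adjusted p = 2.6e-07) and 1.95 in TKO-Ras over WT MEFs (adjusted p = 2.4e-05). Its order over the groups, lowest on the Rb1KO arrays and higher in TKO than in WT MEFs, was that of Ifit2. Lgals3bp, a secreted glycoprotein, was likewise lower in Rb1KO than in WT MEFs (log2 fold change -2.38, adjusted p = 0.0025, and -1.78 without WT 3) and rose by 2.52 in TKO over Rb1KO MEFs (adjusted p = 0.005). Ikbke, a kinase that activates Irf3 and Irf7, fell by 2.05 on the Rb1KO arrays (adjusted p = 1.6e-05).

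Further genes moved with TKO or with mutant Ras. In TKO MEFs Tlr3, the endosomal sensor of double-stranded RNA, fell by 2.01 (adjusted p = 8.6e-05), the membrane-anchored Ly6e rose by 1.69 (adjusted p = 1.4e-04) and Slfn9 rose by 1.47 (adjusted p = 6.9e-05). Ifi47, another GTPase of the Irgm1 family, rose by 1.64 in TKO over Rb1KO MEFs (adjusted p = 0.018) and fell by 2.21 in TKO-Ras over TKO MEFs (adjusted p = 0.0045). Nmi, the partner of Ifi35, fell by 1.77 (adjusted p = 0.028) and Samd9l, a restriction factor for poxviruses, by 1.47 (adjusted p = 0.012) in the latter comparison, as did Stat3, the factor downstream of interleukin 6, by 1.28 (adjusted p = 0.0064). Samd9l was also lower in TKO-Ras than in WT MEFs, and fell by 2.50 (adjusted p = 7.5e-05). Nlrc5, a regulator of MHC class I genes, lay on the Rb1KO arrays at least 3.08-fold above its TKO level, which was at background (adjusted p = 0.046), while Tlr3 was at least 3.77-fold lower in TKO-Ras than in WT MEFs (adjusted p = 2.6e-05). Aim2, a sensor of cytosolic DNA, was at background in WT MEFs and lay at 6.12, 5.61 and 6.44 in TKO-Ras MEFs, at least 1.90-fold higher (adjusted p = 5.5e-06).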

How the data were processed

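Total RNA of 12 MEF samples was labelled with the 3' IVT Express kit and hybridised to Affymetrix MOE430 2.0 arrays. The authors made the values by RMA in Partek 6.5, as their methods and the submitters' processing notes state. The deposited values are log2, as read from their range of 2.18 to 14.92, since the sources used here do not name the scale. Quantile normalization, part of RMA, gives arrays like medians (5.34 to 5.41), so a change shared by most genes cannot be seen.

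The 64 control probe sets were left out of 45101, which leaves 45037. Of these 34945 carried 1 gene symbol, 932 several and 9160 none. The tests used R 4.3.3 and limma 3.58.1 with default lmFit and eBayes settings (all 12 arrays in 1 fit, 8 residual degrees of freedom, 5 two-sided contrasts), with Benjamini-Hochberg adjustment over all 45037. A call is an adjusted p under 0.05, and every adjusted p given is from limma. Where all arrays of a group were at or below 5.13, the fold is a lower bound against that level.

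The 39 genes, the 94 pathway genes and the marker lists were chosen with earlier results of these data known. All members are named, and of other pathway genes the ligands, the receptors and up to 4 called genes per comparison with the largest change and a level above background in the higher group. Of 17 genes with several probe sets, 0 had opposite calls with 12 arrays and 1, Xaf1, had them without WT 3. With 12 arrays, 3 were called on only some probe sets in TKO over WT, 4 in Rb1KO over WT and 1 in TKO over Rb1KO. The same held for 3 in TKO-Ras over TKO and 5 in TKO-Ras over WT. On a dimmer probe set Ifi27 was lower in TKO over WT (log2 fold change -0.98, adjusted p = 0.035). Trim25 was higher on its dimmest in Rb1KO over WT (1.28, adjusted p = 0.0021). Labels name no embryos or cultures, so p-values measure the spread between these samples, which may be technical, and the number of arrays limits precision. Alternatives changed the moderation, weights, samples in the fit, normalization, filter, probe set, background level, replicate block and each replicate. Same-numbered arrays did not deviate together: 8 of 18 pairs correlated over 0.1 (r from -0.21 to 0.31). Scripts were tested on simulated data. Motifs and figures used Python 3.11.15, pandas 2.3.3 and matplotlib 3.10.9, and R packages were statmod 1.5.0 and, for reading tables, data.table (version 1.17.8).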

Additional observations from a re-analysis of the deposited data

How the results depend on the processing

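With 3 arrays per group, 1 array could move a count of called genes by several fold, and no fold change called with 12 arrays reversed under any alternative run. Of those not called, 7 in TKO over WT, 11 in Rb1KO over WT and 8 in TKO-Ras over WT changed sign without WT 3, 0 of them called in either fit, among them Usp18 in TKO over WT (-0.55 to 0.69), and Rtp4 (-0.65 to 0.64) and Ifit1 (-1.03 to 0.67) in TKO-Ras over WT. Leaving out each array in turn gave, for genes higher and lower, 1 to 15 and 0 to 1 in TKO over WT, 1 to 9 and 2 to 2 in Rb1KO over WT, 1 to 4 and 0 to 2 in TKO over Rb1KO, 0 to 0 and 3 to 18 in TKO-Ras over TKO, and 1 to 5 and 9 to 14 in TKO-Ras over WT. The highest counts of 15, 9 and 18 came without WT 3. Shares of all probe sets are given only for the fit of 12 arrays and that without WT 3. The other counts here have no such comparison, and a setting may change calls over the whole array. Array weights gave 10 higher and 1 lower in TKO over WT, 11 higher in Rb1KO over WT, 16 lower in TKO-Ras over TKO and 5 higher in TKO-Ras over WT. One-way contrasts without moderation gave 1 higher in each of TKO over WT, Rb1KO over WT, TKO over Rb1KO and TKO-Ras over WT, 0 lower in TKO over Rb1KO, 2 lower in TKO-Ras over TKO and 8 lower in TKO-Ras over WT. With the groups compared alone in the fit, 1 was higher in TKO over WT and in TKO-Ras over WT, and 18 were lower in TKO-Ras over TKO. The replicate block, whose numbers share no stated source, gave 4 higher in Rb1KO over WT, 1 lower in TKO over Rb1KO and 2 lower in TKO over WT, and samples correlated best with their own number in 13 of 36 cases. Cyclic loess gave 1 higher in Rb1KO over WT and in TKO-Ras over WT, 1 lower in TKO over Rb1KO and 2 lower in TKO over WT. Centring arrays on their median gave 1 lower in TKO over Rb1KO. Probe sets without a suffix gave 1 higher in Rb1KO over WT and 1 lower in TKO over Rb1KO, the filter on low values gave 2 lower in TKO over WT, and the mean of all probe sets gave 1. The bound of Gbp2 was 11.3-fold and 4.02-fold in TKO-Ras below TKO, and 9.20-fold and 3.28-fold below WT, with background at the 50th and 99th percentile. The median of the 37 genes moved by more than the spread of their mean between arrays only in TKO-Ras over WT, to -0.39 with array weights and to -0.19 without WT 3. That spread, 0.55 within groups, includes WT 3 and is widened by it, so it is a lenient measure of leaving that array out. Without WT 3 the median went from 0.17 to 0.60 in TKO over WT and from 0.06 to 0.38 in Rb1KO over WT. Over all alternatives, calls made for the 37 genes with 12 arrays were kept in 604 cases and lost in 94, the losses described above among them. The cause of these changes was not tested, apart from the fewer samples each leaves. Values at or near background limit Dhx58, Mx1, Sp100, Oasl2 and the ligands.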
